A study of Homo sapiens with 6 samples.

Results

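The replication-dependent histone genes encode the linker histone H1 and the core histones H2A, H2B, H3 and H4 from which nucleosomes are built. Their expression was compared between control and PELP1-KD Hep3B cells, an established human hepatocellular carcinoma line. Genes were taken by symbol, as HIST1 to HIST4 followed by H1, H2A, H2B, H3 or H4, which gave 72 of 23228 genes in the deposited tables. These were 6 H1, 17 H2A, 20 H2B, 14 H3 and 15 H4 genes. On the hg19 genome 55 of them, all HIST1 genes, lie on chromosome 6, 16 lie on chromosome 1 (13 HIST2 and 3 HIST3 genes) and HIST4H4 lies on chromosome 12. The comparison rests on 3 libraries of control cells, which carry a non-targeting shRNA (a short hairpin RNA that directs cleavage of a matching mRNA), and 3 libraries labelled PELP1-KD. All cells had been transduced with lentiviral particles. By the labels the PELP1-KD cells were selected with puromycin and pooled from stable clones, and they do not say whether the control cells were. The titles name the first PELP1 shRNA, whereas the protocol lists both that the study used. Depth ranged from 26758363 to 34456542 reads on genes per library, and from 4194 to 7507 of these fell on the 72 histone genes. The labels and the series text also conflict on RNA selection, which matters for mRNAs without a poly(A) tail. One describes removal of ribosomal RNA with paired reads and the other an mRNA kit with single reads.

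PELP1, the targeted gene, had 4893, 4914 and 5102 normalized reads in control and 4421, 4825 and 4840 in PELP1-KD. A normalized read count is scaled to the library size by edgeR's TMM method. The log2 fold change was -0.08 (SE 0.04), with an adjusted p of 0.101 in edgeR's quasi-likelihood test after Benjamini-Hochberg adjustment over the 14537 genes tested. It was called, with an adjusted p of 0.0106, when the replicate number was a block, and with 0.018 without PELP1-KD replicate 3. The PELP1 RNA was thus 94.5% of the control level, and the groups are named here by their labels. All 8 hepatocyte and liver cancer markers examined were measured, and ALB, which encodes serum albumin, was the most abundant RNA in control.

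Most histone protein is made while DNA is copied in S phase, and the replication-dependent genes supply it. Their mRNAs are known as metazoan mRNAs that end in a stem-loop rather than a poly(A) tail. The stem-loop binding protein SLBP and the U7 small nuclear RNP direct the cut just past this hairpin. Several of these genes can also give longer, polyadenylated mRNAs from sites downstream. The replication-independent histone genes, such as those of H2A.Z and H3.3, make ordinary polyadenylated mRNAs throughout the cell cycle. The HIST1 to HIST4 symbols used here are those of the deposited tables.

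The hairpin is shown first because it defines the usual 3′ end of these mRNAs. A script looked in the first exon and the 100 bases after it for a 16-base inverted repeat that begins with GG and ends with CC, with a 6-base stem and a 4-base loop holding at least 3 T. It was present in 66 of the 72 histone genes (91.7%) and in 12 of 22543 other genes with a window no longer than the longest of a histone gene (0.0532%). H2AFX, which encodes the damage-marking variant H2A.X, was among these 12. The 66 matches took 5 forms, shared by 41, 10, 10, 4 and 1 genes. They are not all separate sites, since 3 pairs of symbols cover the same copies. The match of HIST1H3D is also that of HIST1H2AD, at the 3′ end of that H2A gene. It lies after the first exon of HIST1H3D, and the second exon of HIST1H3D was not searched. A gene of each form is printed below as DNA of the coding strand, 5′ to 3′, with the hairpin in capitals between 5 flanking bases on each side. The hairpins, without the flanks, lie at chr6:26055972-26055987 (HIST1H1C, minus strand, the form of 41 genes), chr6:26104545-26104560 (HIST1H4C, plus strand, 10 genes), chr6:27114145-27114160 (HIST1H2BK, minus strand, 10 genes), chr6:27798956-27798971 (HIST1H4K, minus strand, 4 genes) and chr1:149858941-149858956 (HIST2H2AC, plus strand, 1 gene) of hg19.
HIST1H1C: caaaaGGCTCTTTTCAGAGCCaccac
HIST1H4C: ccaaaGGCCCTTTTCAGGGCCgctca
HIST1H2BK: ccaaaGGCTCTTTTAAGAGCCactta
HIST1H4K: caaaaGGCCCTTTTTAGGGCCcccac
HIST2H2AC: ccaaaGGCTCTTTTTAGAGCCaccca
Of the 66 genes, 60 had an annotated model that ended within 51 bases past the hairpin. The other 6 had models that were spliced or longer than 1000 bases, with between 129 and 3704 exon bases past it. These were HIST1H2BK (389 bases), HIST1H2BD (379), HIST1H3D (486), HIST2H2BE (1728), HIST2H2BF (3704) and HIST2H2BA (129). In HIST1H2BK, HIST1H3D and HIST2H2BA the hairpin lies after the first exon and outside the annotated exons. In HIST1H2BD, HIST2H2BE and HIST2H2BF it lies within an exon. The 6 genes without a match were HIST1H2AG, HIST1H2AK, HIST2H2BC, HIST1H2BI, HIST1H3E and HIST1H4L, which says only that these letters were not found in the window.

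The promoters also share motifs. In the 250 bases before the gene start, on either strand, the octamer ATTTGCAT, bound by OCT1, was found in 26 of the 72 histone genes (36.1%) and in 1.48% of all 23207 genes with a window. It was present in 15 of 20 H2B and 10 of 17 H2A genes, in 1 of 14 H3 genes and in 0 H1 and 0 H4 genes. The window of the H2A gene HIST2H2AC begins inside the octamer of the neighbouring gene HIST2H2BE, so HIST2H2AC is counted without it. The H3 gene is HIST1H3D, whose window overlaps that of the H2A gene HIST1H2AD and holds the same octamer. The CCAAT box was found in 62 histone genes (86.1%) and in 32.8% of all genes. The TATA box letters TATAAA were found in 45 (62.5%) and in 9.61% of all genes. A match is a description of the sequence and not evidence of binding. HIST1H2BK holds the octamer and HIST3H2A does not, and both serve as examples only. HIST1H2BD fell without the octamer, and HIST1H2BH, which holds it, was not called (log2 fold change 0.08). The promoters of HIST1H2BK (chr6:27114638-27114887, minus strand) and of HIST3H2A (chr1:228645561-228645810, minus strand) are printed with these motifs in capitals.
HIST1H2BK: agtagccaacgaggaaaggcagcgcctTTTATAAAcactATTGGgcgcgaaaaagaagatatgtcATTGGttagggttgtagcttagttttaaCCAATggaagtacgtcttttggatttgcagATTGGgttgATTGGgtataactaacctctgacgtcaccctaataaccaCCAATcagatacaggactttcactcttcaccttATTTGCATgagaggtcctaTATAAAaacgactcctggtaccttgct
HIST3H2A: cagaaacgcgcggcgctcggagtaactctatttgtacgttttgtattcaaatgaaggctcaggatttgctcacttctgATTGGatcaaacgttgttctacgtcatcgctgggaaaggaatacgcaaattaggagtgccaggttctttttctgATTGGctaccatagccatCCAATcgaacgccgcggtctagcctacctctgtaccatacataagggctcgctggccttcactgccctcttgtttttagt

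Reads on the histone genes took a smaller share in the libraries labelled PELP1-KD. The 72 genes together had 217, 225 and 226 reads per 1000000 reads on genes (RPM) in control and 156, 157 and 165 in PELP1-KD. All 3 PELP1-KD libraries lay below all 3 control libraries, and the PELP1-KD mean was 71.5% of the control mean (223 ± 5.22 against 159 ± 4.76, SD, n = 3 each). No test was made on this sum, because HIST1H2BK, a single H2B gene, gave 58.8% of the histone reads in control. Without HIST1H2BK the PELP1-KD mean was 77.5% of control. In bulk RNA, fewer cells in S phase, less histone mRNA per cell and other causes of a smaller share cannot be told apart.

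By class, the H2B genes together stood lowest against control, with 159 ± 4.20 and 109 ± 3.52 RPM (68.4%). The H1 genes had 75.2% of control (26.9 ± 0.580 against 20.2 ± 0.769) and the H2A genes 83.6% (25.1 ± 1.02 against 21.0 ± 0.783). In these 3 classes the libraries of the groups did not overlap. The H2B value was 73.9% without HIST1H2BK and the H2A value 72.6% without HIST3H2A, so the order of H2A and H2B rests on these 2 genes. The H3 genes had 6.22 ± 0.662 and 4.79 ± 0.310 RPM (77.1%), again without overlap. This lack of overlap rests on HIST1H3D. In control HIST1H3D had 66, 63 and 60 of the 195, 229 and 201 H3 reads. In PELP1-KD it had 24, 36 and 38 of 137.5, 126 and 162. HIST1H3D shares 378 exon bases with the H2A gene HIST1H2AD, and reads there count in both classes. The H4 genes had 5.42 ± 0.965 and 4.32 ± 0.607 (79.7%), and here the groups overlapped. By locus, HIST1 genes stood at 70.2% of control, HIST2 genes at 67.2%, HIST3 genes at 116% and HIST4H4, with 8 to 15 reads in a library, at 110% (94.3% without control replicate 1). The HIST3 value is nearly that of HIST3H2A alone, with 619 reads in the 3 control libraries, since HIST3H2BB had 24 reads in control and 15 in PELP1-KD (0.528 ± 0.0702 and 0.373 ± 0.0569 RPKM, reads scaled to exon length and to all reads on genes) and HIST3H3 had none.

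**Figure D1:**
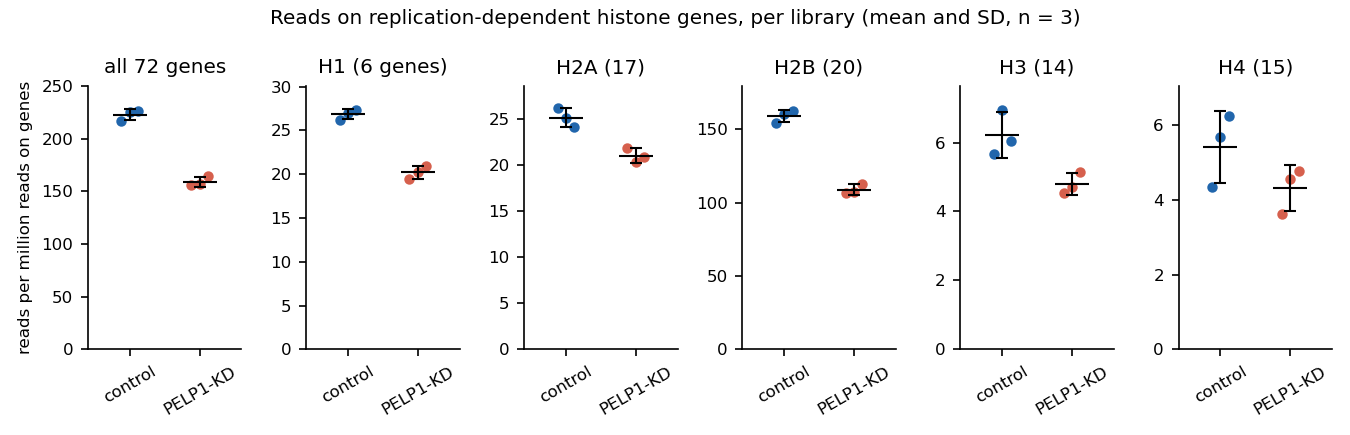
RPM (vertical axes, each from 0) that fell on all 72 histone genes and on each class, with 1 point per library and the mean and SD of 3 control and 3 PELP1-KD libraries. The PELP1-KD points lie below the control points for the total (156 to 165 against 217 to 226) and for H1, H2A, H2B and H3, while those of H4 overlap.

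The levels per length spread widely. Of the 72 genes, 63 had any read and 9 had none. HIST1H2BK had the highest level in control, with an RPKM of 156 ± 4.32. It was followed by HIST1H1C with 35.0 ± 1.02, HIST1H2AC with 24.2 ± 2.33, HIST1H2BD with 18.0 ± 0.787 and HIST3H2A with 12.4 ± 0.858 (SD, n = 3). Each of these neighbours in the order differed by more than the sum of their SDs. HIST1H4C, at 6.06 ± 2.29, and HIST1H2BJ, at 4.51 ± 0.650, overlapped in their spread, as did most genes further down. On the same scale the replication-independent genes H2AFZ (H2A.Z) and H3F3B (H3.3) had 363 ± 4.38 and 140 ± 1.89, so HIST1H2BK lay between them, and each of the other 71 genes at 35.0 or less. How far RNA selection, on which the labels conflict, sets these levels was not tested.

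**Figure D2:**
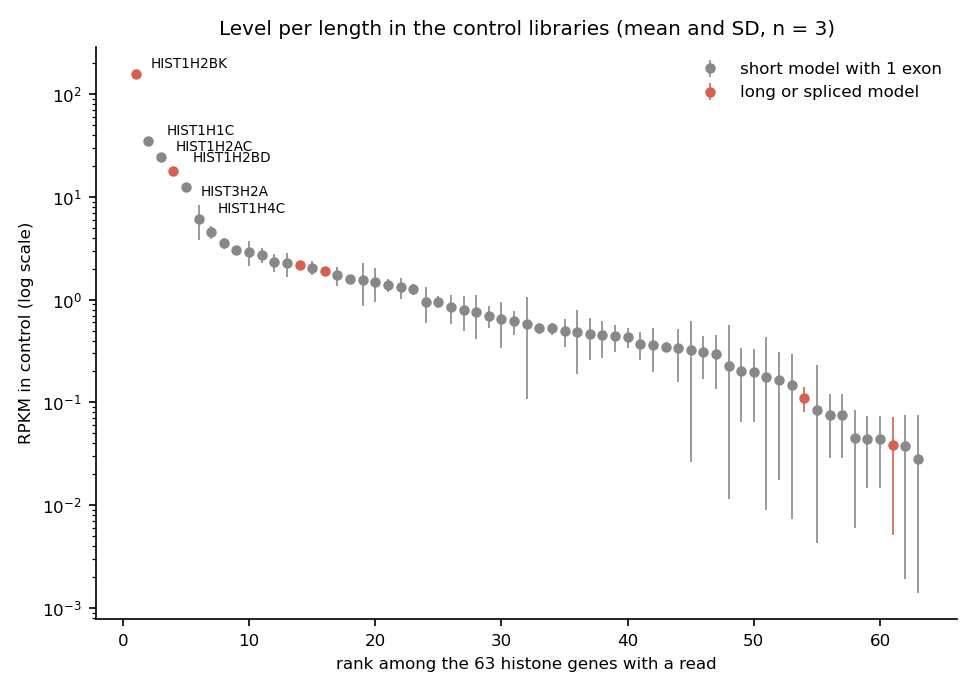
Level per length of the 63 histone genes with a read, as RPKM in the control libraries on a log axis, ordered by rank, with the mean and SD of 3 libraries (lower bars that would reach 0 are shortened). HIST1H2BK stands at 156, above HIST1H1C at 35.0, and the 6 coloured genes have long or spliced models.

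In the group where they were higher, 6 genes had at least 100 normalized reads, and each is given in every library. HIST1H2BK, an H2B gene at chr6:27106072-27114637 with 2 annotated exons, had 4008, 4179 and 4238 normalized reads in control and 2699, 2686 and 2878 in PELP1-KD. It fell by 0.59 on the log2 scale (SE 0.04, edgeR adjusted p = 4.06e-10), to 66.5% of control, with a 95% interval from -0.68 to -0.50. HIST1H1C, which encodes the linker histone H1.2, had 791, 800 and 838 against 578, 596 and 634. Its log2 fold change was -0.42 (SE 0.06, adjusted p = 7.63e-06). In both genes the control libraries lay clear of the PELP1-KD libraries.

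HIST1H2BD, an H2B gene, had 488, 469 and 513 normalized reads in control and 365, 364 and 385 in PELP1-KD, a log2 fold change of -0.40 (SE 0.07, adjusted p = 0.000105). HIST1H2AC, an H2A gene that starts 241 bases from HIST1H2BC on the other strand, had 463, 404 and 387 against 335, 264 and 293, a log2 fold change of -0.49 (SE 0.09, adjusted p = 0.000175). HIST2H2BE, an H2B gene in the chromosome 1 cluster, had 129, 142 and 129 against 71.7, 95.7 and 82.9, a log2 fold change of -0.68 (SE 0.14, adjusted p = 0.000366). In all 5 genes every PELP1-KD library was below every control library, and the calls held at the same threshold under all 13 other settings of the fit.

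HIST3H2A, an H2A gene of the separate HIST3 locus, went the other way. It had 192, 209 and 183 normalized reads in control and 216, 233 and 229 in PELP1-KD, so all 3 PELP1-KD libraries were above all 3 control libraries. Its log2 fold change of 0.22 (SE 0.10, adjusted p = 0.0655) was not called. It was called with the replicate number as a block (adjusted p = 0.0498) and with scaling to total reads alone (0.0481), and it ranged from 0.0511 to 0.176 when a library was left out. Its promoter, printed above, holds CCAAT boxes and neither the octamer nor TATAAA.

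**Figure D3:**
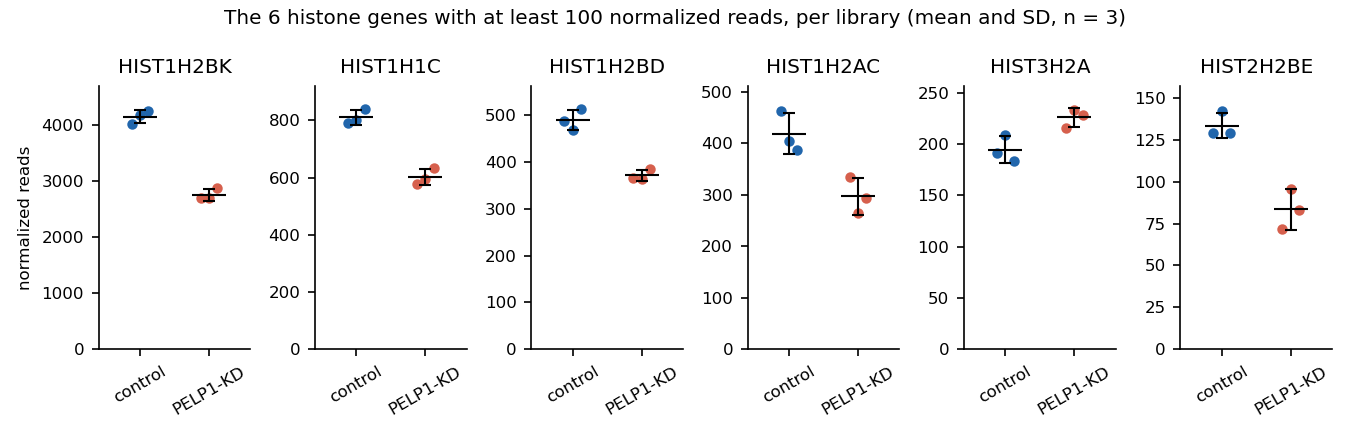
Normalized reads per library (vertical axes, each from 0) of the 6 histone genes with at least 100 normalized reads, with the mean and SD of 3 control and 3 PELP1-KD libraries. In 5 genes the PELP1-KD points lie below the control points, as in HIST1H2BK (2686 to 2878 against 4008 to 4238), and in HIST3H2A they lie above.

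Over all histone genes, 28 of the 72 passed edgeR's filter on low counts and were tested. Of these, 10 fell, 1 rose and 17 were not called, whereas 26.8% of all 14537 tested genes fell and 26.8% rose. The share of histone genes that fell (10 of 28, 35.7%) is read against that background. All 3 PELP1-KD libraries were below all 3 control libraries in 10 of the 28 genes (29.3% of all genes tested) and above them in 2 (29.5% of all genes). The log2 fold change was below 0 in 23 of the 28 and above 0 in 5, with a median of -0.45 beside 0.0044 over all genes. The genes that were tested passed the filter partly through the group in which they were higher, so the counts describe these genes and not all 72. The standard error had a median of 0.27 (0.04 to 0.44) among the 28 genes and of 0.06 over all genes, since 22 of the 28 had under 100 normalized reads. Genes with a mean of 10 to 100 normalized reads anywhere in the tables fell in 23.4% and rose in 17.3% of cases. Without control replicate 3, 7 of the 29 histone genes then tested were called, and DESeq2 called 7 of 28.

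**Figure D4:**
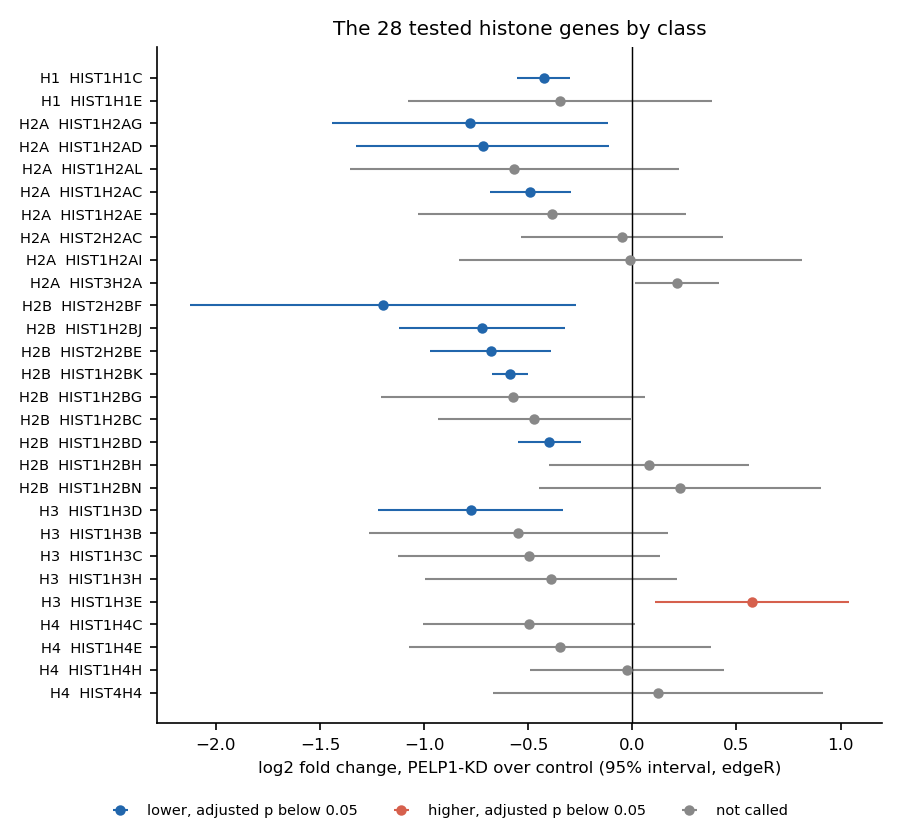
Log2 fold change of PELP1-KD over control (horizontal axis) with its 95% interval from edgeR for the 28 tested histone genes, ordered by class. The 10 genes that fell are in blue, HIST1H3E, which rose, is in red, and the 17 not called are in grey, with the widest intervals in genes of few reads.

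Of the 22 tested genes under 100 normalized reads, 5 fell and 1 rose, and these are named after their values were seen. HIST1H2BJ, an H2B gene, had 60.5, 79.6 and 65.8 normalized reads in control and 46.1, 37.3 and 41.0 in PELP1-KD (log2 fold change -0.72, SE 0.19, edgeR adjusted p = 0.00351). HIST1H3D, an H3 gene, had 60.5, 60.4 and 57.2 against 24.6, 42.0 and 38.0 (log2 fold change -0.78, SE 0.21, adjusted p = 0.00452). Both kept non-overlapping groups and were called without each library in turn. HIST1H3D shares 378 of its 864 exon bases with the H2A gene HIST1H2AD, so its call may rest in part on H2A reads. In raw reads HIST1H3D had 66, 63 and 60 in control and 24, 36 and 38 in PELP1-KD. HIST1H2AD had 42, 27 and 39 against 15, 26 and 17.

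The other 4 calls were less firm. HIST1H2AD, an H2A gene, had a log2 fold change of -0.72 (adjusted p = 0.0432). It shares 378 exon bases with HIST1H3D, so reads there count for both, and its groups overlapped. It was not called without control replicate 1 (0.141), control replicate 3 (0.121), PELP1-KD replicate 1 (0.162) or PELP1-KD replicate 3 (0.116). HIST1H2AG, an H2A gene with at most 25 reads in a library, had a log2 fold change of -0.78 (0.0443). It was not called with the replicate block (0.0568) or without any single library (0.0632 to 0.148). Among the called histone genes HIST2H2BF was the only one past a 2-fold change, at -1.20 (SE 0.44, 0.0288), on raw counts of 11.5, 19 and 16 in control and 6, 9 and 3 in PELP1-KD. It was not called without control replicate 2 (0.114), control replicate 3 (0.0672), PELP1-KD replicate 1 (0.0671) or PELP1-KD replicate 3 (0.138).

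HIST1H3E, an H3 gene, was the one that rose, with 34.8, 25.9 and 28.6 normalized reads in control and 37.9, 46.7 and 48.9 in PELP1-KD (log2 fold change 0.57, SE 0.22, edgeR adjusted p = 0.0366). Its call was lost without control replicate 2 (0.126), control replicate 3 (0.0879), PELP1-KD replicate 2 (0.0912) or PELP1-KD replicate 3 (0.119). It is also one of the 6 genes in which no hairpin was found, as is HIST1H2AG, which fell. HIST1H4C, the most read H4 gene, varied most among the genes with over 50 normalized reads in both groups. It had 48.6, 70.9 and 105 normalized reads in control and 41.0, 52.5 and 64.9 in PELP1-KD, so the groups overlapped, and the log2 fold change of -0.50 (SE 0.24, adjusted p = 0.0934) was not called. Libraries with the same replicate number held the same rank in both groups, and with that number as a block it was called (0.0241). It was also called without control replicate 1 (0.00956) or PELP1-KD replicate 3 (0.0259).

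The 44 genes that were not tested had at most 17 reads in any library. Of these, 35 had a read, and pooled they gave 157, 197 and 179 reads in control and 84.5, 98.7 and 99.3 in PELP1-KD. As a share this was 5.31 ± 0.715 and 3.21 ± 0.453 RPM, or 60.4% of control, and the groups did not overlap. Without control replicate 2, which had the most of these reads, the value was 64.5%. Over all 63 genes with a read, the mean RPM was lower in PELP1-KD in 55 and higher in 8. The same share over all genes was not computed, but 7172 of the 14537 tested genes had a log2 fold change below 0. The 63 genes are not separate measurements, since some cover the same copies or share exon bases. Among them, 7 had only 1 to 9 reads in all 6 libraries together. The 9 genes without a read include HIST1H2AA and HIST1H2BA, which are known for expression in testis, and HIST3H3. Among the 9 are also HIST2H3A and HIST2H3C, which cover the same 2 copies. Whether reads that match both copies were lost to the limit on mapping quality was not tested.

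The genes with long or spliced models together took most of the histone reads and stood lower against control than the short genes. These 6 genes, 5 of them H2B genes, held 68.7% of the histone reads in control and had 153 ± 3.92 and 104 ± 3.05 RPM in control and PELP1-KD, 67.9% of control. Without HIST1H2BK the other 5 had 22.1 ± 0.413 and 15.9 ± 0.715, 71.9% of control. The 66 short genes had 69.7 ± 1.64 and 55.2 ± 1.71, 79.3% of control. Of the 5 long genes tested, all fell, with a median log2 fold change of -0.68, and DESeq2 called 4. Of the 23 short genes tested, 5 fell (21.7%), 1 rose and 17 were not called, with a median of -0.39. Over all genes tested, 26.8% fell and 26.8% rose. Read number sets how easily a change is called, and it differed widely among the long genes. Most of their reads were on HIST1H2BK, while HIST2H2BF had 64.5 over all 6 libraries. Whether the structure itself matters was not tested.

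The H2A and H2B genes were also split by the octamer, after the values had been seen. Of 25 with the octamer, 12 were tested, and 7 of these fell, with a median log2 fold change of -0.58. Over all genes tested, 26.8% fell. Of 12 without it, 5 were tested and 1 fell, with a median of -0.01. One of these 5, HIST2H2AC (-0.05), is in this set only because its window begins inside the octamer of the neighbouring gene HIST2H2BE. HIST1H2BK, HIST1H2AC and HIST2H2BE belong to the first set and HIST1H2BD and HIST3H2A to the second. With 5 genes in the second set this is a description only.

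Head-to-head pairs share a promoter region, and the levels of their 2 genes were compared per length. There were 12 H2A and H2B pairs within 240 to 347 bases of each other on opposite strands. In the 11 pairs with reads the ratio of the higher to the lower control RPKM ran from 1.20 (HIST1H2AM and HIST1H2BO) to 460, and it was under 2 in 3 pairs. HIST1H2BK had 460 times the control level of its partner HIST1H2AH, which had 15 reads in the 3 control libraries and 13 in the PELP1-KD libraries. HIST3H2A had 23.5 times the level of HIST3H2BB, and HIST1H2AC had 7.98 times that of HIST1H2BC. Fold changes could be set side by side in 4 pairs. HIST1H2AC and HIST1H2BC had -0.49 and -0.47, the second not called (edgeR adjusted p = 0.081). HIST1H2BJ and HIST1H2AG had -0.72 and -0.78. HIST1H2BG and HIST1H2AE had -0.57 and -0.39, neither called. HIST2H2BE and HIST2H2AC had -0.68 and -0.05, and HIST2H2AC was not called (0.873). Neither the difference within a pair nor the part of RNA selection in these levels was tested.

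Genes that act on histone mRNA were examined next. The list for the processing and decay of histone mRNA had 20 genes, all tested, of which 7 fell and 3 rose, with a median log2 fold change of -0.02. SLBP, whose protein binds the hairpin printed above, fell from 3047 ± 80.6 to 2302 ± 50.6 normalized reads (log2 fold change -0.40, SE 0.04, edgeR adjusted p = 8.16e-08). NCBP2, which encodes the small subunit of the nuclear cap-binding complex, fell by 0.47 (SE 0.05) and DHX9, an RNA helicase, by 0.29 (SE 0.03) on the log2 scale. ERI1, the exonuclease that trims and degrades the hairpin end, rose from 1819 ± 112 to 2846 ± 128 (log2 fold change 0.65, SE 0.05, adjusted p = 1.28e-09). UPF1, a helicase of mRNA decay, rose by 0.14 (SE 0.03) and CSTF2, a cleavage factor, by 0.20 (SE 0.05). The U7 snRNP proteins LSM10 and LSM11 had log2 fold changes of 0.15 and -0.27, neither called (adjusted p = 0.0671 and 0.116). LSM10 was called with the replicate block (0.0384) and with scaling to total reads alone (0.0413), and LSM11 without control replicate 3 (0.0338) or PELP1-KD replicate 3 (0.0488).

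Among 14 genes linked to histone transcription, 4 fell and 1 rose, with a median of -0.03. CCNE1 (cyclin E1, log2 fold change -0.43, SE 0.05), CCNA2 (cyclin A2, -0.27, SE 0.04) and E2F3 (-0.27, SE 0.05) were among those that fell, and HINFP, which binds H4 promoters, rose (0.29, SE 0.07). NPAT, the coactivator of the histone locus body, had 0.05 (SE 0.07, edgeR adjusted p = 0.529). Of 39 S phase genes, 18 fell and 4 rose, with a median of -0.14. MCM3, a subunit of the replicative helicase, fell by 0.56 (SE 0.04) on the log2 scale and RPA1, which binds single-stranded DNA, by 0.37 (SE 0.04), and SLBP is on this list too. MCM6 (0.32, SE 0.03), another helicase subunit, ORC6 (0.38, SE 0.04), of the origin recognition complex, and POLD1 (0.22, SE 0.05), a DNA polymerase subunit, rose.

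Histone genes outside the replication-dependent set had a median log2 fold change of -0.14. Of 19 in the tables, 12 were tested with edgeR, of which 6 fell and 0 rose. DESeq2 gave 6 and 0, and 0 had a log2 fold change above 0 at an unadjusted p below 0.05. H1FX, a linker histone gene, fell by 0.49 (SE 0.04), H2AFX, which also carries the hairpin, by 0.34 (SE 0.04) and H3F3B by 0.24 (SE 0.03). Together the 19 genes took 0.199% of reads in control and 0.182% in PELP1-KD, against 0.0223% and 0.0159% for the 72 replication-dependent genes. Histone chaperones, which carry histones to DNA, fell in 11 of 20 genes and rose in 2, with a median of -0.16. SSRP1 (-0.38, SE 0.03) and SUPT16H (-0.26, SE 0.03), both subunits of the FACT complex, and IPO4 (-0.27, SE 0.04), an importin, fell, while ATRX (0.37, SE 0.05) and UBN1 (0.12, SE 0.05) rose. UBN1, a chaperone subunit for H3.3, was not called without control replicate 2 (edgeR adjusted p = 0.269), PELP1-KD replicate 2 (0.128) or PELP1-KD replicate 3 (0.106), or with 4 of the other settings (0.0518 to 0.0746). The percentages of all genes that fell or rose, given above, apply to each of these counts.

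**Figure D5:**
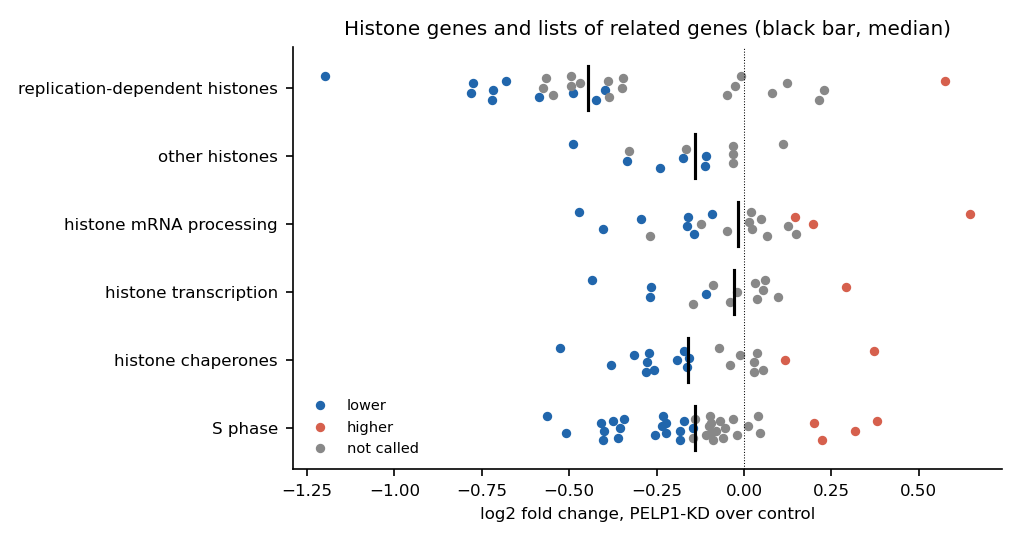
Log2 fold change of PELP1-KD over control (horizontal axis) for the tested genes of 6 lists, with 1 point per gene coloured by its call and a black bar at the median. The median of the 28 replication-dependent histone genes is -0.45 and that of the other lists lies between -0.16 and -0.02.

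Genes between the histone genes on the chromosomes were also read. Of 7 such genes 5 were tested and 3 fell, beside 26.8% of all genes tested, among them TRIM38, an immune signalling gene between HIST1 genes, with 84.9 ± 17.8 against 8.52 ± 2.24 normalized reads (log2 fold change -3.31, SE 0.27, edgeR adjusted p = 4.23e-09). HFE, the hemochromatosis gene next to HIST1H1C, fell by 0.50 (SE 0.11), and SLC17A2, a transporter gene, by 1.23 (SE 0.24) on the log2 scale. SLC17A4 and SLC17A1, of the same transporter family, had 0.27 and 0.21, neither called (adjusted p = 0.35 and 0.419).

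Since most of these mRNAs lack a poly(A) tail, the reads on other RNAs without one were counted in the same libraries. RMRP, the RNA of RNase MRP, had 37, 160 and 27 reads in control and 42, 40 and 23 in PELP1-KD. RPPH1, the RNA of RNase P, had 23, 68 and 36 against 10, 13 and 14. Control replicate 2 thus stood apart in both, and it also had the highest RPM on the untested histone genes. The 72 histone genes were 70.3% to 72.2% of control whichever library was left out, and 71.9% without control replicate 2. The SNORD genes, of small nucleolar RNAs cut from introns, took 0.0199% of reads in control and 0.0208% in PELP1-KD. The SNORA genes took 0.00428% and 0.00528%. MALAT1, a nuclear RNA whose end is protected by a triple helix, took 0.0177% and 0.0253%. RPPH1 fell (log2 fold change -1.61, SE 0.38, edgeR adjusted p = 0.00139), and without control replicate 2 the value was -1.07 (0.0191). RMRP was not called, with -0.92 (SE 0.92, 0.458) over all libraries and 0.32 (0.425) without control replicate 2. MALAT1 rose (0.50, SE 0.12, 0.0163), but was not called with the replicate block (0.0631) or without any 1 of the 3 control libraries (0.058 to 0.0787). The part of RNA selection in the values of the histone genes was not tested.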

How the data were processed

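RNA-seq was analysed in 3 control and 3 PELP1-KD Hep3B libraries, grouped by their labels. The study's cell assays and xenografts have no values here. For each library the authors deposited a table of estimated counts per gene that were not normalized. Per the file headers these came from featureCounts 1.5.0-p1 on hg19 exons, with strand and a mapping quality of at least 2, and the submitters' processing notes list bcl2fastq, HISAT2 and SAMtools, whereas the paper names TopHat2 and HTSeq. Reads with several matches were shared out as fractions, which left 10.6% to 13.3% of a library's values not whole. Reads over several genes were taken to count in full for each, since SNRPN and SNURF, which overlap, held whole numbers in all 6 libraries that differed by at most 1 read (3035 and 3036 in control replicate 1). Of the 72 histone genes, 9 had a value that was not whole, 8 shared exon bases, and 3 pairs of symbols covered the same 2 copies and are equal by construction. The labels and the series text conflict on extraction (TRIzol or RNeasy) and library kit. Puromycin is given in mg per ml in the labels and in μg per mL in the paper.

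Counts were rounded and fitted over all genes with edgeR 4.0.16 (R 4.3.3; TMM, filterByExpr, robust glmQLFit, glmQLFTest), with Benjamini-Hochberg adjustment over 14537 of 23228 genes and a threshold of 0.05. Standard errors divide the log2 fold change by the root of F, and 95% intervals use the fit's moderated degrees of freedom. Shares of reads use unrounded values over all reads on genes. The labels do not say whether replicates were separate cultures, so p values measure the spread between these libraries. Replicates differed by more than sampling noise (chi-square per degree of freedom 1.92 to 6.76). Libraries with the same number deviated together (correlations of 0.336, 0.247 and 0.666 over 6370 genes), so the numbers were taken to pair the libraries, although control replicate 2 correlated better with PELP1-KD replicate 1 (0.418) and replicates 1 and 2 were not told apart. On simulated counts for PELP1-KD against control, the fit recovered 62 of 73 genes changed by a log2 value of 0.5, 60 of 62 changed by 1 and 63 of 63 changed by 2, with 12 false calls among 14516 genes. The simulation gave every gene the same dispersion and drew the changed genes from all tested genes. It therefore does not give the recovery among genes with as few reads as most histone genes.

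Hairpins, promoters and distances were read from the GRCh37 genome, whose chromosomes hold all exons of the tables, at the tables' own hg19 coordinates. The genes and lists were chosen with earlier results of these data known. Histone genes with a mean of 100 or more normalized reads in either group were named, and, of the called genes on each related list, the 3 lowest p values among those that rose and among those that fell. Other genes named were chosen after their values were seen. RN7SK, RN7SL1, RN7SL2, RNY1, RNY3 and H2BFS, which were on the lists, were not analysed here. Alternatives were DESeq2 size factors, upper-quartile or total-read scaling, DESeq2 1.42.0, other filters and thresholds, a replicate block, genes with whole values, and each library left out. The sums without HIST1H2BK, with TMM scaling and without each library per class were chosen after seeing the data.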

Additional observations from a re-analysis of the deposited data

How the results depend on the processing

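Of the 72 histone genes, 11 were called (10 lower, 1 higher). DESeq2 called 7, all lower, an adjusted p below 0.01 left 7 and 0 higher, and a 2-fold minimum left 1, HIST2H2BF. Scaling to total reads and the replicate block each gave 2 higher calls, adding HIST3H2A, and the block added HIST1H4C and lost HIST1H2AG. Leaving out each library gave 7 to 11 calls, 0 to 1 of them higher and 7 to 11 lower, and a median log2 fold change of -0.52 to -0.43. The PELP1-KD share was 78.5% of control over genes with whole values, a set without HIST1H2BK, 77.5% without HIST1H2BK alone, and 70.3% to 72.2% with a library left out. Of the uncalled genes named, 3 changed sign with a library left out, HIST2H2AC (-0.20 to 0.10), SLC17A4 (-0.0042 to 0.52) and RMRP (-1.32 to 0.32), and the other values examined did not. The same settings were applied to the related lists after seeing the data, and their counts stayed within 1.5 times. Scaling moved the median of all genes by at most 0.02. The low counts of most histone genes limit precision, so a gene that was not called is not shown to be unchanged. DESeq2 gave an adjusted p of 0.0839 for HIST2H2BF, 0.101 for HIST1H2AD, 0.147 for HIST1H2AG and 0.106 for HIST1H3E. Among the 55 tested genes named, the paired fit changed the calls of 6, those of HIST1H2AG, HIST1H4C, HIST3H2A, PELP1, LSM10 and MALAT1.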
